A study of Homo sapiens with 2 samples.

Results

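YAP1, its DNA-binding partner TEAD1 and 8 of their target genes (CCN1, CCN2, ANKRD1, LATS2, AMOTL2, AJUBA, CRIM1 and AXL) were compared between Huh7 cells with a CD24 hairpin and Huh7 cells with a control hairpin. They were 10 of the 19775 genes measured. The members were chosen from the known Hippo pathway with the differences of this same comparison in view, so their differences are given as a description and were not tested. A member's value came from the probe sets (groups of short probes that measure 1 transcript) whose platform annotation names that gene alone, 24 in all, and was taken as their mean.

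Huh7 is an established line of human hepatocellular carcinoma cells. One of the 2 cultures had received a lentiviral short hairpin RNA (shRNA) that targets CD24, a small glycoprotein of the cell surface, and the other a non-target control hairpin (NTC). Both were stably transduced, and the medium and its serum were the same. RNA of each culture was measured on 1 Affymetrix array, so each group held 1 array and nothing was measured on the spread between cultures or between hairpins.

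The deposited log2 values had been centred probe set by probe set, which makes the values of the 2 arrays equal and opposite. Only the difference between the arrays, CD24 shRNA minus NTC, can be read from them, and not the level of a transcript. As an error, the SD between the probe sets of a gene is printed beside its mean. It does not cover the spread between cultures. Pooled over the 10523 genes with several probe sets it was 0.27 on the log2 scale. CD24 itself was lower with CD24 shRNA on all 6 of its probe sets, with centred values averaging -0.68 in CD24 shRNA cells and 0.68 in NTC cells (difference -1.37 ± 0.38, SD, 6 probe sets). By their names all 6 can match several transcripts, so CD24 was not measured by any other kind of probe set. Centred values do not show whether the cells express the genes that mark hepatocytes, but the digits of the file bound some levels (explained with AXL). An array mean of at least 8 was found for 3 of 19 probe sets of hepatocyte markers such as ALB, and for 0 of 37 of stellate cell or fibroblast markers, 0 of 11 of endothelial and 0 of 10 of macrophage or leukocyte markers. The level could not be bounded at all for 10, 9, 2 and 5 of these probe sets, in the same order. Nor could it for a further 2, 1, 1 and 1, which had equal values on both arrays. The members also had 0 of 24, so a count of 0 does not show low expression.

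YAP1 is a transcriptional coactivator that cannot bind DNA itself and reaches its genes through TEAD proteins. When the Hippo kinases are active, LATS kinases phosphorylate YAP1 and its paralogue TAZ, which are then held in the cytoplasm or degraded, and the targets are transcribed less. Several targets, such as LATS2 and AMOTL2, encode inhibitors of YAP1 and so close a negative feedback loop. In the liver the pathway is known for its control of organ size and for its part in hepatocellular carcinoma. YAP1 and LATS activity is set largely by protein modification and location, which an expression array does not measure.

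TEAD proteins bind the motif GGAATG, and the stretches before the start of transcription of 7 members were searched for it on both strands, in the 250 bases before each start that RefSeq gives (build GRCh38.p14). The following stretches are shown because they hold matches, in capitals, in the member with the largest difference (ANKRD1), in a classic target with a small difference (CCN2) and in the coactivator's own gene (YAP1). They read 5′ to 3′ on the strand of the gene and lie at chr10:90921088-90921337 (minus strand), chr6:131951373-131951622 (minus strand) and chr11:102110197-102110446 (plus strand).
ANKRD1: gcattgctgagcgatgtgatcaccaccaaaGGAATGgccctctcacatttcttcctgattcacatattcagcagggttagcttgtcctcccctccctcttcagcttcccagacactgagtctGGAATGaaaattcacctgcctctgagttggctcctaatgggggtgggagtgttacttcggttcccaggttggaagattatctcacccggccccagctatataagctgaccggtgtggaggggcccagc
CCN2: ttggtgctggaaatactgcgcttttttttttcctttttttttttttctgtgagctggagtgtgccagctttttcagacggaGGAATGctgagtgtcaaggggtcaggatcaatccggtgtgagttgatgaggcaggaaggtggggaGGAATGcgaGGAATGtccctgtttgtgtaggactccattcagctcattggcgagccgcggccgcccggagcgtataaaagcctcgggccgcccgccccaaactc
YAP1: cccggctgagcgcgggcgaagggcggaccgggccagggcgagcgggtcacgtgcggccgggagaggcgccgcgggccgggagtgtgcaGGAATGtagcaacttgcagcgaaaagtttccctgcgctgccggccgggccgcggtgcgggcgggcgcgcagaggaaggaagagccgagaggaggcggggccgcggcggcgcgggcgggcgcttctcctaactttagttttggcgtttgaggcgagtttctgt

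CCN2 held 3 matches, which start 169, 104 and 95 bases before its start of transcription, and ANKRD1 held 2, at 220 and 128 bases. YAP1 held 1 match, at 162 bases. AMOTL2, AJUBA and AXL have 2 starts each in the RefSeq table, and in each of them the window of 1 start held no match and that of the other held 1. These single matches are shown with 12 bases on either side, because they lie before members that were over 1.5-fold higher (AMOTL2, AJUBA) and before one with a difference close to 0 (AXL), at chr3:134374499-134374528 (minus strand), chr14:22976884-22976913 (minus strand) and chr19:41226531-41226560 (plus strand).
AMOTL2: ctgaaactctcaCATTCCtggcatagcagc
AJUBA: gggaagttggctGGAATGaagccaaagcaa
AXL: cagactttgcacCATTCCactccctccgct

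In AMOTL2 and AXL the match is CATTCC, which is GGAATG on the other strand. The window of LATS2 held no match. Thus 6 of the 10 windows held the motif, against 11.9% of all 35116 windows of the same length. They came from 6 of the 7 genes, where 13.6% of the 15384 genes on the array with a RefSeq start held it. Most members were chosen as known target genes of YAP1 and TEAD proteins, so nothing about them is read from these shares. The AP-1 motif TGANTCA, bound by FOS and JUN proteins, was in 1 of the 10 windows (6.57% of all windows), that of ANKRD1, 195 bases before the start and with no overlap with GGAATG. The CArG box, the motif of the muscle regulator SRF, was in 0 of them (1.16% of all windows). A match is a run of letters and does not show that a TEAD protein was bound there. In CCN2 and ANKRD1 the number of matches did not follow the size of the difference: CCN2 with 3 matches differed by 0.22 and ANKRD1 with 2 by 2.40. CCN1, CRIM1 and TEAD1 were not searched, because no promoter sequence was matched to their symbols.

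**Figure D1:**
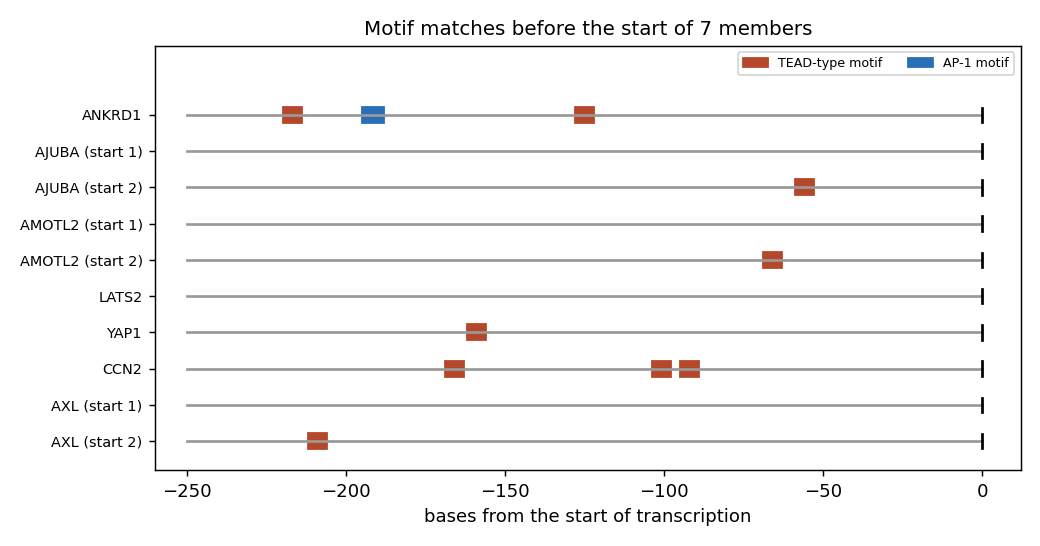
Matches in the 250 bases before each start of transcription of 7 members, with the start at 0 on the right and genes ordered from the largest difference (top) to the smallest. CCN2 holds 3 TEAD-type matches, ANKRD1 holds 2 and an AP-1 match, and LATS2 holds 0.

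Of the 10 members 9 lay above 0, where 49.4% of all genes did, and 22 of their 24 probe sets did, against 48.8% of all probe sets. These counts use the differences that the members were chosen with. At least 2-fold higher were 2 members, ANKRD1 and CCN1, beside 0.632% of all genes, and at least 2-fold lower were 0, beside 0.485%. At least 1.5-fold higher were 5, beside 2.63%, and at least 1.5-fold lower were 0, beside 2.38%. The median difference of the members was 0.60 on the log2 scale, which is 1.51-fold, where the median over all genes was 0. When the hybridisation controls were set to a median of 0 the shares over all genes were 0.915% higher and 0.339% lower (181 and 67 genes, against 125 and 96 without this scaling), and with the largest probe set of each gene 1.53% and 1.06%. The members were chosen with this comparison in view, so nothing about them is read from these shares.

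The coactivator and its partner were modestly higher. YAP1 had centred values of 0.20, 0.19 and 0.13 on its 3 probe sets in CD24 shRNA cells, against -0.20, -0.19 and -0.13 in NTC cells. All 3 probe sets were higher with CD24 shRNA and lay close together, and the mean difference was 0.34 ± 0.08 (SD, 3 probe sets), or 1.27-fold. TEAD1, which carries YAP1 to DNA, had values of 0.37, 0.32 and 0.11 in CD24 shRNA cells, against -0.37, -0.32 and -0.11 in NTC cells. Its mean difference was 0.53 ± 0.28 (SD, 3 probe sets), or 1.45-fold. The lowest of the 3 probe sets, with a difference of 0.22, is the one whose name marks it as able to match several transcripts, and the other two lay at 0.64 and 0.75.

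Among the targets that encode secreted matricellular proteins, the paralogues CCN1 and CCN2 differed widely from each other. CCN1 (formerly CYR61), an integrin ligand of the matrix, had centred values of 1.15 and 0.93 in CD24 shRNA cells, against -1.15 and -0.93 in NTC cells. Both probe sets were higher with CD24 shRNA, at 4.90-fold and 3.65-fold, and the mean difference was 2.08 ± 0.30 (SD, 2 probe sets), or 4.23-fold. Only 18 of 19775 genes had a larger positive difference. CCN2 (formerly CTGF), a matrix protein of the same build, had 0.11 in CD24 shRNA cells and -0.11 in NTC cells on its 1 probe set. That difference of 0.22, or 1.17-fold, is within the pooled SD of 0.27, and 3208 genes had a larger one. CCN1 and CCN2 are commonly read together as a measure of YAP activity, and here they lay 1.86 apart on the log2 scale.

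ANKRD1, an ankyrin repeat protein of heart and skeletal muscle that is also a standard YAP target, had the largest difference of the 10. Its single probe set stood at 1.20 in CD24 shRNA cells and at -1.20 in NTC cells, a difference of 2.40, or 5.29-fold. Among all genes, 8 had a larger positive difference. The digits of the file place the NTC array below 8 and the mean of both arrays at 4 or more, so the CD24 shRNA array lay between 5.20 and 10.4 on the log2 scale. With 1 probe set there is no second measurement of ANKRD1 on these arrays.

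**Figure D2:**
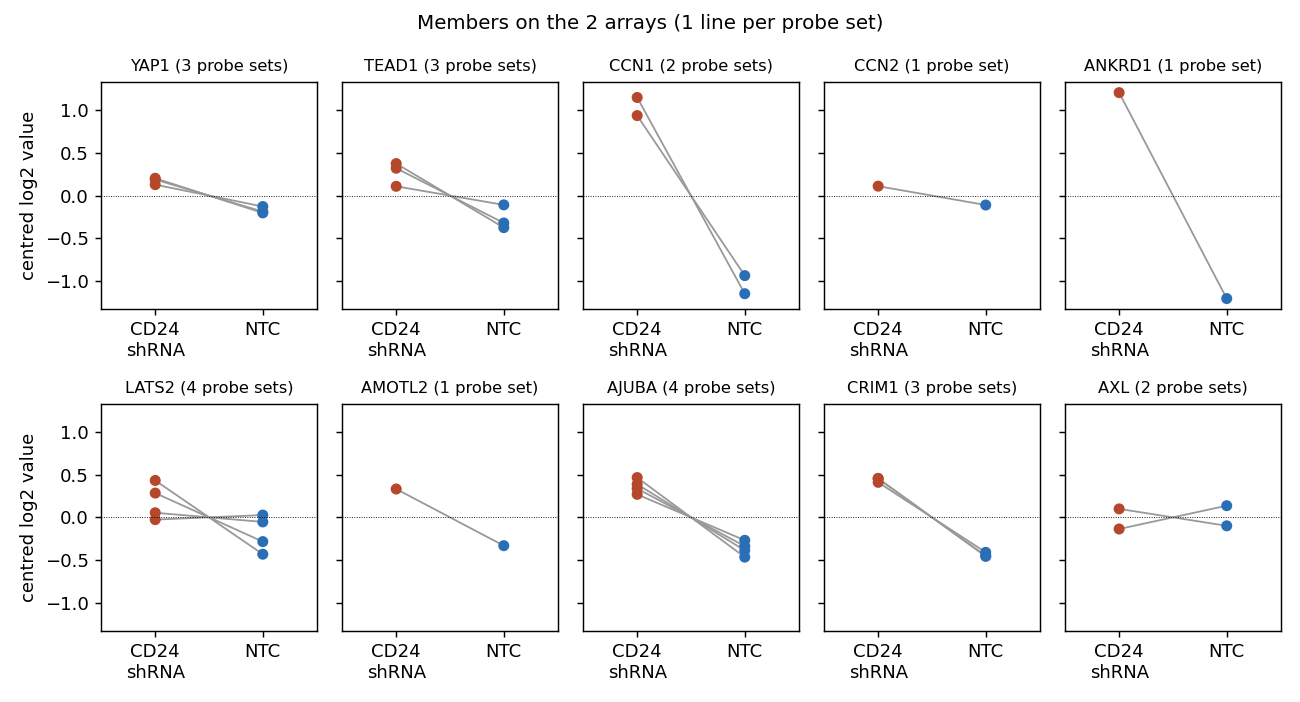
Centred log2 value (vertical axis) of each probe set of the 10 members in CD24 shRNA cells (left of each panel) and NTC cells (right), with 1 line per probe set and 1 array per group. The steepest lines are those of ANKRD1 (1.20 against -1.20) and CCN1 (1.15 and 0.93 against -1.15 and -0.93). The lines of AXL slope in opposite directions, and 1 of the 4 lines of LATS2 slopes against its others.

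Of the 3 targets that act back on the Hippo pathway, AJUBA and AMOTL2 were over 1.5-fold higher and LATS2 was not. AJUBA, a LIM-domain adaptor that binds LATS kinases and limits them, had values from 0.27 to 0.46 in CD24 shRNA cells, against -0.46 to -0.27 in NTC cells, on 4 probe sets. Its mean difference was 0.73 ± 0.17 (SD, 4 probe sets), or 1.66-fold, and its probe sets ran from 0.54 to 0.93 with none near 0. AMOTL2, a motin that holds YAP1 at cell junctions, had 0.33 in CD24 shRNA cells and -0.33 in NTC cells on 1 probe set, a difference of 0.66, or 1.58-fold. LATS2, the kinase that phosphorylates YAP1, had 0.43, 0.28, 0.05 and -0.03 in CD24 shRNA cells, against -0.43, -0.28, -0.05 and 0.03 in NTC cells. Its probe sets disagreed, with differences from -0.05 to 0.86, so the mean of 0.37 ± 0.42 (SD, 4 probe sets) is smaller than its own spread. The LATS2 probe set below 0 is near the array's background, with its dimmer array below 4, and the other three lay above 0.

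CRIM1 and AXL, the members at the cell surface, are described together. CRIM1, a transmembrane protein with cysteine-rich repeats that binds bone morphogenetic proteins, had values of 0.46, 0.45 and 0.41 in CD24 shRNA cells, against -0.46, -0.45 and -0.41 in NTC cells. The difference of 0.88 ± 0.05 (SD, 3 probe sets), or 1.84-fold, had the narrowest spread of the 7 members with several probe sets. All 3 CRIM1 probe sets can match several transcripts by their names, so they may share a target. AXL, a receptor tyrosine kinase of the TAM family, had 0.10 and -0.14 in CD24 shRNA cells, against -0.10 and 0.14 in NTC cells. Its probe sets pointed in opposite directions, and the mean difference of -0.04 ± 0.33 (SD, 2 probe sets) is smaller than their spread; it turns positive, to 0.07, when the arrays are scaled on their hybridisation controls, which also moves the median of all genes, to 0.11.

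How bright a probe set was can be bounded from the number format of the file. A single-precision number carries finer binary steps the smaller it is, and a step too fine for a log2 value of 4 places the dimmer array below 4, which is close to the background of the array. By this reading both AXL probe sets had a dimmer array below 4 and no array above 4.27, so AXL was measured near background in both cultures. Of the 24 member probe sets, 3 were near background in this sense, those of AXL and 1 of LATS2, against 31.0% of all probe sets used. That share also counts probe sets with equal values on both arrays, of which the members had 0. As a check, 42 of 130 probe sets of ribosomal proteins and other abundant transcripts had an array mean placed at 8 or more, against 0 of 180 of olfactory and taste receptors, keratin-associated proteins and defensins. The dimmer array was placed below 4 for 8 of the 130 and for 101 of the 180, so the bound also falls on some transcripts expected to be abundant. Where rounding keeps the values of a probe set from summing exactly to 0, the size of the remainder gives a lower bound on the mean of its arrays. For 11 member probe sets neither bound could be had.

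**Figure D3:**
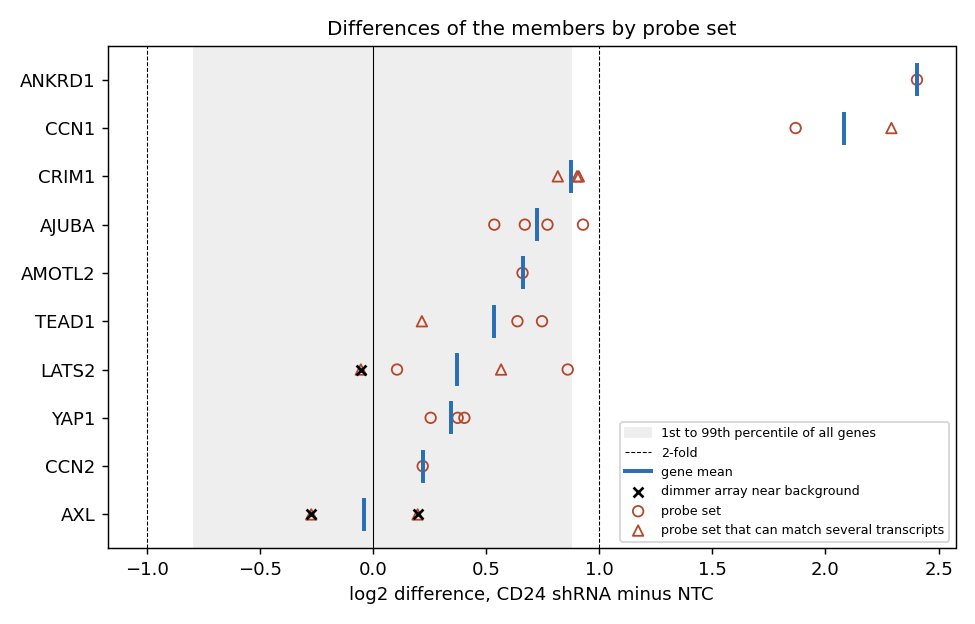
Log2 difference, CD24 shRNA minus NTC, of every probe set of the members (circles and triangles) with the gene mean (bar), and crosses on probe sets near background. The shaded band holds all genes from the 1st to the 99th percentile (-0.79 to 0.87), and the means of ANKRD1 (2.40), CCN1 (2.08) and CRIM1 (0.88) lie above it.

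Ordered by their difference, the members ran ANKRD1, CCN1, CRIM1, AJUBA, AMOTL2, TEAD1, LATS2, YAP1, CCN2 and AXL. Of the 9 pairs of neighbours in this order, 7 differed by less than the pooled SD between probe sets of 0.27. The others were ANKRD1 over CCN1, by 0.32, and CCN1 over CRIM1, by 1.20, so neighbours from CRIM1 down are not set apart by this measure. The members form a pair with large differences and a run of 8 between 0.88 and -0.04.

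Genes of the same families and steps of the pathway were set beside the members. These lists too were chosen with earlier results of these data known, so their counts are a description. Among the YAP, TAZ, TEAD and VGLL cofactors, 5 of the 8 other genes lay above 0 and 3 below, with a median of 0.13. In either direction 0 passed 2-fold, beside 0.632% of all genes higher and 0.485% lower. The means of all TEAD paralogues were above 0: TEAD4 at 0.72 ± 0.22 (SD, 2 probe sets), TEAD2 at 0.37 ± 0.37 (SD, 4 probe sets, 1 of them below 0) and TEAD3 at 0.26 (1 probe set). WWTR1, which encodes TAZ, lay at 0.33 ± 0.37 (SD, 3 probe sets) with 1 probe set below 0. Those below 0 were VGLL1, VGLL2 and VGLL4 of the vestigial-like family, which bind TEAD proteins in place of YAP1, the lowest being VGLL1 at -0.17. All 3 probe sets of VGLL1 were near background.

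The Hippo kinases and their upstream scaffolds were split. Of 16 genes beside LATS2, 8 lay above 0 and 8 below, and their median was -0.001. At least 1.5-fold higher were 3 (2.63% of all genes) and at least 1.5-fold lower were 0 (2.38%). The core kinases and their partners lay between -0.15 and 0.00, with STK3 at -0.14, STK4 at -0.08, SAV1 at -0.15, MOB1A at 0.00, MOB1B at -0.01 and LATS1 at -0.01. The 4 with the largest differences were positive: PTPN21, a phosphatase, at 0.92 ± 0.82 (SD, 5 probe sets), its relative PTPN14 at 0.75 ± 0.32 (SD, 4 probe sets), the kinase MAP4K4 at 0.68 ± 0.28 (SD, 5 probe sets), and the kinase TAOK3 at 0.42 ± 0.03 (SD, 2 probe sets). PTPN14 is at once an inhibitor of YAP1 and one of its targets.

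The motins and the LIM adaptors of LATS, to which AMOTL2 and AJUBA belong, lay mostly above 0. AMOT, the founding motin, was at 0.93 (1 probe set) and AMOTL1 at 0.24 ± 0.42 (SD, 4 probe sets). WTIP, a close relative of AJUBA, was at 0.71 (1 probe set), while the third relative, LIMD1, was at -0.09 ± 0.08 (SD, 5 probe sets), with all of its probe sets below 0. Of these 4 genes 2 were at least 1.5-fold higher (2.63% of all genes) and 0 were at least 1.5-fold lower (2.38%). The 2 were AMOT and WTIP, with 1 probe set each.

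A signature of 22 YAP and TAZ targets is known from tumours, and 7 of the members belong to it. Of its other genes, 14 were measured, and 12 lay above 0 and 2 below, with a median of 0.46. At least 2-fold higher were 2 (0.632% of all genes) and at least 1.5-fold higher were 6 (2.63%), with PTPN14 among them, which the Hippo list also counts. 0 were lower by 2-fold (0.485%) or by 1.5-fold (2.38%). MYOF, a membrane repair protein, had a mean difference of 1.76, or 3.39-fold, over 3 probe sets at 0.23, 2.41 and 2.65. The dimmer array was near background for those at 0.23 and 2.65, and not for the one at 2.41. GADD45A, a growth arrest protein, was at 1.00 (1 probe set), CCDC80, a matrix protein, at 0.90 ± 0.79 (SD, 3 probe sets) and TGFB2, a transforming growth factor, at 0.79 ± 0.73 (SD, 5 probe sets). Below 0 were NT5E at -0.43 ± 0.52 (SD, 4 probe sets) and ASAP1 at -0.03 ± 0.06 (SD, 5 probe sets), both smaller than the spread of their probe sets.

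Targets that are more often named in liver and in growth control were also counted. Of 7 measured, 2 lay above 0 and 5 below, with a median of -0.07. It turned to 0.043 when the hybridisation controls were set to a median of 0, which moved the median of all genes to 0.11. By their names, all probe sets of SOX9, NOTCH2, JAG1, SPP1 and MYC can match several transcripts. Without such probe sets only CCND1 and BIRC5 were left, with a median of 0.041. SOX9, a transcription factor of bile duct and progenitor cells, was 1.73-fold lower (-0.79 ± 0.15, SD, 2 probe sets), MYC was at -0.33 (1 probe set) and CCND1, cyclin D1, at -0.21 ± 0.28 (SD, 2 probe sets). NOTCH2, a Notch receptor, was at 0.38 ± 0.16 (SD, 4 probe sets). BIRC5, the inhibitor of apoptosis survivin, at -0.02 ± 0.28 (SD, 4 probe sets), and SPP1, the secreted protein osteopontin, at -0.07 ± 0.24 (SD, 2 probe sets), lay within the spread of their probe sets.

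**Figure D4:**
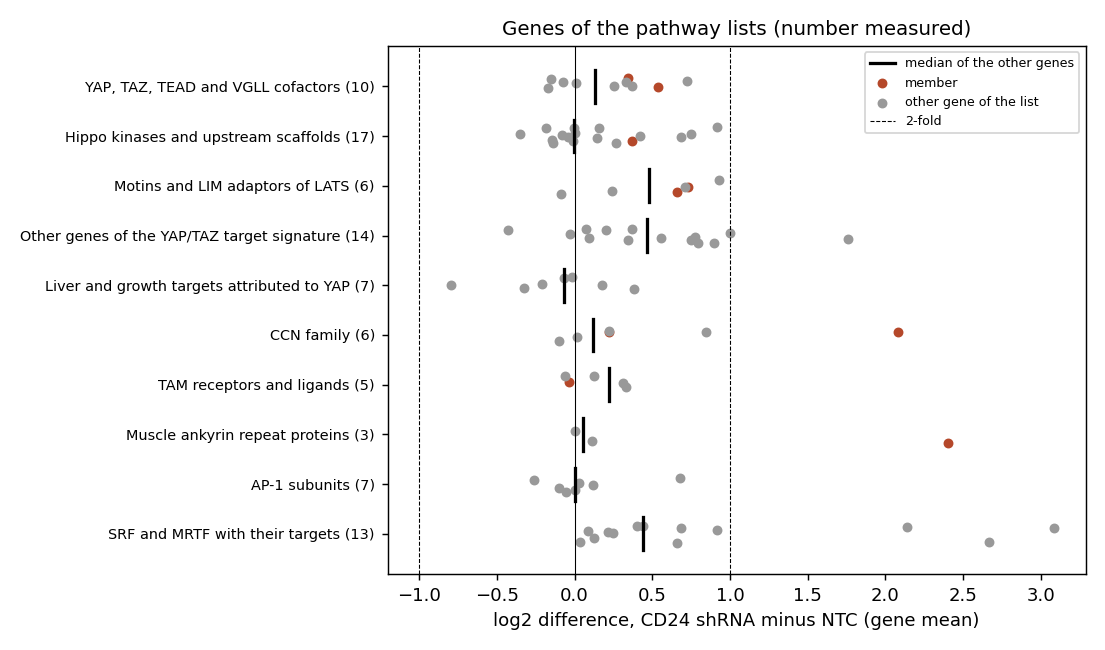
Log2 difference, CD24 shRNA minus NTC, of each measured gene of 10 lists (points, members in red) with the median of the genes that are not members (bar). The other genes of the target signature have a median of 0.46 and the SRF and MRTF list one of 0.44. That of the Hippo kinases and upstream scaffolds is -0.001, with genes from -0.35 to 0.92.

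Closer relatives of CCN1, ANKRD1 and AXL are given beside them. In the CCN family, CCN3 was at 0.84 ± 0.40 (SD, 2 probe sets), CCN6 at 0.22, CCN4 at 0.02 and CCN5 at -0.10, against 2.08 for CCN1. ANKRD2 and ANKRD23, the other muscle ankyrin repeat proteins, were at 0.11 and 0 (1 probe set each), against 2.40 for ANKRD1. The 0 of ANKRD23 stands for equal values on both arrays, which leave its level unbounded. In the TAM group, the other receptors, MERTK at 0.33 ± 0.26 (SD, 3 probe sets) and TYRO3 at 0.31 ± 0.06 (SD, 2 probe sets), lay above 0, with the ligands GAS6 and PROS1 at 0.13 and -0.06.

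Partner factors at YAP target genes were described in the same way. Of 7 AP-1 subunits, which often bind beside TEAD proteins, 3 lay above 0, 3 below and 1 at 0, with a median of 0. FOSL2 stood highest at 0.68 ± 0.53 (SD, 5 probe sets). FOS (-0.06) and FOSB (-0.26) had 1 probe set each, near background. The 1 probe set of FOSL1 had equal values on both arrays, which leave its level unbounded, and it gave the median of 0. Without probe sets near background or tied the median was 0.028. SRF and its MRTF coactivators drive contractile genes and also CCN1, CCN2 and ANKRD1. SRF, MRTFA and MRTFB themselves were at 0.09, 0.12 and 0.04, and all 13 measured genes of that list lay above 0 (49.4% of all genes), with a median of 0.44 and 3 at least 2-fold higher (0.632%). That list was chosen with earlier results of these data known, so nothing about SRF is read from these counts. CNN1, calponin, was at 3.08 (1 probe set), FHL2, a LIM-domain coactivator, at 2.14 (1 probe set) and TAGLN, transgelin, at 2.67 ± 2.27 (SD, 3 probe sets), with 1 probe set at 0.05. The probe sets of MYL9, a myosin light chain, disagreed, at -0.32 and 2.16 (mean 0.92 ± 1.75, SD, 2 probe sets). CCN1, CCN2 and ANKRD1 are targets of both YAP and SRF, and which of the factors their differences follow was not tested.

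Markers of other cells were given beside these values. Of 10 stellate cell or fibroblast markers 7 lay above 0, with a median of 0.06, and 2 were at least 2-fold higher (0.632% of all genes). COL3A1 was at 2.35 ± 1.77 (SD, 5 probe sets, from 0.11 to 3.78) and LUM at 1.12 ± 1.41 (SD, 2 probe sets, at 0.13 and 2.12). The dimmer array was near background for 4 probe sets of COL3A1 and both of LUM, which does not bound the brighter array to background. Those of COL3A1 included differences of 3.41 and 3.67, beside 3.78 on the probe set not near background. Of 5 endothelial markers 1 lay above 0, with a median of -0.05. Of 4 measured macrophage or leukocyte markers 2 lay above 0, with a median of 0.02. Their part in the differences of CCN1 and ANKRD1 was not tested. Of 7 hepatocyte markers 2 lay above 0, and their median was -0.09.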

How the data were processed

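Total RNA of 1 CD24 shRNA culture and 1 NTC culture of Huh7 was extracted with Trizol and hybridised to 1 Affymetrix array each, per the labels' protocols. Log2 values were deposited by the authors after RMA (background correction, quantile normalisation and summary of probes), which the submitters' processing notes name. Which software and version were used, and how probe sets were centred, is not given in the sources used here. The 2 deposited values of each probe set sum to 0 within 1e-06. Of 54675 probe sets, 41091 that named 1 gene and were no array controls were used (1801 name several genes and 11777 none here), for 19775 genes. Entrez IDs of 41037 were found in the GRCh38.p14 gene table, which changed 0 symbols. The difference CD24 shRNA minus NTC was averaged over the probe sets of a gene, computed with Python 3.11.15 and pandas 2.3.3, and higher or lower was counted at 2-fold. With 1 array per group no test, p-value or replicate SD exists, and precision is limited by the number of arrays. The calculation and the bounds from the digits were tested on simulated data.

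The members and the 10 lists were chosen with earlier results of these data known. The text names CD24, all members and up to 4 other genes per list by size of difference. The core Hippo genes (STK3, STK4, SAV1, MOB1A, MOB1B and LATS1), VGLL1, VGLL2, VGLL4, NT5E, ASAP1, BIRC5, SPP1, FOS, FOSL1, SRF, MRTFA and MRTFB were added once their values had been seen. Alternatives were other ways to combine or leave out probe sets, other scalings, other folds and the mean over genes. NUAK2, AREG, FLNA and CD68 were not analysed here. Promoter sequences are those of RefSeq, and 7 members were matched by symbol.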

Additional observations from a re-analysis of the deposited data

How the results depend on the processing

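No paired analysis was possible because each group held 1 array. Without probe sets near background or tied, 9 of 9 members with a value lay above 0. Without probe sets named as matching several transcripts, CRIM1, AXL and CD24 had no value, and the 8 members left lay above 0. With 18 hybridisation control probe sets set to a median of 0, every difference grew by 0.11, the median of all genes with them, and AXL at 0.074 lay below that median. Of 57 values of single members under the alternatives, 53 moved by less than the SD over probe sets. Part of this was fixed beforehand, because the median of all probe sets was already 0 and centring on it changed nothing. ANKRD1, CCN2 and AMOTL2, with 1 probe set each, could move only with the hybridisation controls, and were judged by the pooled SD. No called value changed sign, which among the members was counted only for ANKRD1 and CCN1, the 2 past 2-fold. ANKRD1 and CCN1 passed 2-fold in every alternative tried. With the threshold at 1.5-fold and all else kept, 5 members passed. TEAD1 passed it too with the median over probe sets (0.64), the largest probe set (0.75), the hybridisation controls at 0 (0.65) and without probe sets named as matching several transcripts (0.69). LATS2 passed it with the largest probe set (0.86). Of all genes, 0.632% were 2-fold higher and 0.485% lower, but 0.915% and 0.339% with the hybridisation controls at 0, and 1.53% and 1.06% with the largest probe set. CD24 lay at -1.97 on its probe set with the largest difference. List medians, members included, moved as follows. With the hybridisation controls at 0 they were 0.41 for the YAP and TEAD cofactors (otherwise 0.29), 0.11 for the Hippo kinases (0.00), 0.80 for the motins and LIM adaptors (0.69), 0.58 for the target signature (0.46), 0.043 for the liver and growth targets (-0.07), 0.33 for the CCN family (0.22), 0.11 for AP-1 (0) and 0.55 for SRF and MRTF (0.44). With the median over probe sets they were 0.084 for the Hippo kinases and 0.54 for SRF and MRTF. With the largest probe set they were 0.57 for the signature, -0.24 for the liver and growth targets and 1.00 for SRF and MRTF. Without probe sets named as matching several transcripts they were 0.13 for the Hippo kinases, 0.34 for the signature and 0.26 for SRF and MRTF. In this setting they were 1.20 for the muscle ankyrin proteins (otherwise 0.11) and 0.041 for the liver and growth targets, of which only CCND1 and BIRC5 were left. Without probe sets near background they were 0.12 for the Hippo kinases, 1.26 for the muscle ankyrin proteins and 0.67 for SRF and MRTF. The mean over genes was 0.16 for the Hippo kinases, 0.53 for the motins and LIM adaptors, 0.55 for the CCN family, 0.84 for the muscle ankyrin proteins and 0.90 for SRF and MRTF. Settings that leave out probe sets also leave out genes; beyond that, the cause was not tested.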

Other observations

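Across the 15384 genes on the array with a RefSeq start, the motifs searched in the members were counted in the same 250 bases, taking any start of a gene. GGAATG was present in 18 of 93 genes at least 2-fold higher with CD24 shRNA (19.4%), in 5 of 68 genes at least 2-fold lower (7.35%) and in 13.6% of all. Of the 171 genes with 2 or more matches in a window, among them ANKRD1 and CCN2, 4 passed 2-fold upward (2.34%) and 2 downward (1.17%), and their median difference was 0. The AP-1 motif was present in 13 of the 93 genes that were higher (14.0%), in 4 of the 68 that were lower (5.88%) and in 7.07% of all. The CArG box was present in 9 of the 93 (9.68%), in 1 of the 68 (1.47%) and in 1.55% of all. None of the 7 members searched holds a CArG box in these windows. These are counts over 1 pair of arrays with no test, and genes are not independent replicates.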
